A study of Homo sapiens with 6 samples.

Results

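The genes described here were protein-coding genes that WT HEK 293T cells expressed and that ΔTUT4/7 cells left almost without a read. A gene was a member when its mean over the 3 WT libraries was 1 CPM (counts scaled by the library total) or more and its rounded counts over the 3 ΔTUT4/7 libraries summed to 3 or less. Of the 15984 protein-coding genes in the table, 13396 reached the WT limit and 55 met both limits. The selection also set aside HOX, CT45A, MAGE, protocadherin, cadherin, collagen, ZNF, H3C, SLC7 and KCN symbols and 4 single genes (NEFM, SAGE1, PARP9 and DTX3L), which left 42. Because the same libraries chose the members, the gap between WT and ΔTUT4/7 in their own levels is a description and carries no test.

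HEK 293T is a human embryonic kidney line that carries SV40 large T antigen. Total RNA depleted of ribosomal RNA was sequenced from 3 biological replicates of unedited cells (WT) and 3 of cells deleted for both TUT4 and TUT7 (ΔTUT4/7), 6 libraries in all, with no treatment named in the labels. The ΔTUT4/7 line was made earlier and obtained from another laboratory, so all of its libraries came from 1 line, and the deletion and any other difference between that line and the WT stock cannot be told apart. TUT4, counted over the whole gene, went against its label: the WT libraries held 222, 226 and 211 CPM and the libraries labelled ΔTUT4/7 held 852, 875 and 883 CPM. TUT7 was lower, at 63.3, 65.5 and 66.4 CPM against 26.3, 23.9 and 25.5 CPM. Which stretch of either gene was deleted is not given in the sources used here, so whole-gene counts do not show whether a working transcript was made, and ΔTUT4/7 below means the libraries that carry that label. Library totals ran from 18757228 to 33148937 counts, and the groups were nearly equal in sum, at 73506031 counts in WT and 73897018 in ΔTUT4/7. Of the renal markers checked, EYA1 (16.6 and 23.8 CPM in WT and ΔTUT4/7) was present in both groups, and PAX2 (2.23 and 1.40 CPM) and LHX1 (4.06 and 1.88 CPM) were low in both.

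TUT4 and TUT7 are terminal uridylyltransferases that add uridines to the 3′ ends of messenger RNAs and of some microRNA precursors. Uridine tails on a messenger RNA mark it for decay, and on microRNA precursors a tail can favour either processing or decay, depending on its length. Promoters dense in CpG dinucleotides are typical of broadly expressed and developmental genes, and CpG-poor promoters of genes restricted to a few tissues. As everywhere in bulk RNA, fewer cells that express a gene and less RNA per cell cannot be told apart.

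Over all members, the WT libraries held 3565, 4696 and 5434 counts and the ΔTUT4/7 libraries 20, 11 and 16. The members' summed level was therefore 190, 189 and 182 CPM in WT and 0.619, 0.539 and 0.766 CPM in ΔTUT4/7. The sums were 13695 counts in WT and 47 in ΔTUT4/7, where 13812 would have been counted at the WT level. In ΔTUT4/7, 15 members had no count, 12 had 1, 10 had 2 and 5 had 3. The lowest WT library of any member stood at 0.640 CPM and the highest ΔTUT4/7 library at 0.0983 CPM, so no member overlapped between groups. The selection all but fixes this in advance, since it limits the WT mean and the ΔTUT4/7 sum, so it is no finding about the members.

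**Figure D1:**
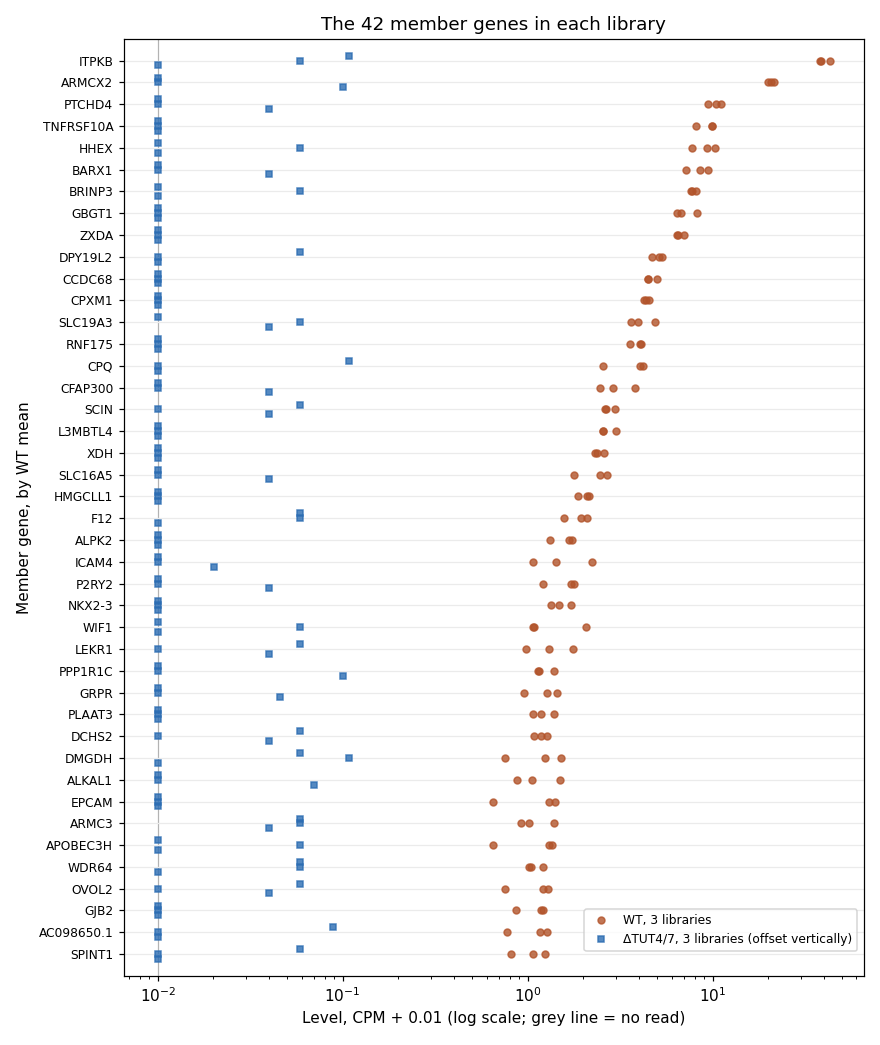
Level of each of the 42 members in each library, in CPM plus 0.01 on a log axis, ordered by WT mean. Circles are the 3 WT libraries and squares the 3 ΔTUT4/7 libraries, spread vertically. The WT means span 1.04 to 39.9 CPM, and no ΔTUT4/7 value exceeds 0.0983 CPM.

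Many members were weakly expressed in WT: 21 had a WT mean of 1 to 2 CPM, 11 of 2 to 5 CPM and 10 of 5 CPM or more, with a median of 1.94 CPM. Even the lowest of them would have held 76.6 counts over the ΔTUT4/7 libraries at its WT level, against the 3 or fewer it held. Fold values are therefore given as bounds. For a member with no ΔTUT4/7 count, a floor of 3 counts over the group gives "at least" values, which ran from 27.1-fold lower (GJB2) to 234-fold lower (TNFRSF10A). For members with 1 to 3 counts the ratio is given with its exact 95% counting interval, which covers counting error only.

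The promoters of 4 members are printed first, since how CpG-dense they are is compared further on. ITPKB and ARMCX2 are the members with the highest WT levels, and HHEX and XDH hold the most and the fewest CpG dinucleotides in the promoter window among the members with a WT mean of 2 CPM or more. Each line gives the 250 bases before the RefSeq transcription start (build GRCh38.p14), 5′ to 3′ on the strand of the gene, with each CpG in capitals. The ITPKB stretch (chr1:226739283-226739532, minus strand) holds 5 CpGs and the ARMCX2 stretch (chrX:101659851-101660100, minus strand) holds 7. The HHEX stretch (chr10:92689705-92689954, plus strand) holds 38 CpGs and is 81.2% G + C, and the XDH stretch (chr2:31414743-31414992, minus strand) holds 3 and is 46.4% G + C.
ITPKB: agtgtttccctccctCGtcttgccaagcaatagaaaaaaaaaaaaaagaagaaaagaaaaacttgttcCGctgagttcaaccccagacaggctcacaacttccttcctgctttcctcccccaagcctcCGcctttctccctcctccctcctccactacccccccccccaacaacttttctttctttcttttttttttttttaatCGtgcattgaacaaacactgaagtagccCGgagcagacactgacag
ARMCX2: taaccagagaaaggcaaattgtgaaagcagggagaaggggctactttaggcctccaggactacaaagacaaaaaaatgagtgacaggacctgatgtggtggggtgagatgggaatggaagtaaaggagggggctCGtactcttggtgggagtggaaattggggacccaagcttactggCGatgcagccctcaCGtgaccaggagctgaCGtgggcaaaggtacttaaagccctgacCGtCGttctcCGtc
HHEX: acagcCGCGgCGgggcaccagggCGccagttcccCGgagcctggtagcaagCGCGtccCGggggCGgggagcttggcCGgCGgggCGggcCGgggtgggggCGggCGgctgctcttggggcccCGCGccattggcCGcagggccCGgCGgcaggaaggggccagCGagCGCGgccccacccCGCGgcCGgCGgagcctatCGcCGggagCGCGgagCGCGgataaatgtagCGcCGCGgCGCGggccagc
XDH: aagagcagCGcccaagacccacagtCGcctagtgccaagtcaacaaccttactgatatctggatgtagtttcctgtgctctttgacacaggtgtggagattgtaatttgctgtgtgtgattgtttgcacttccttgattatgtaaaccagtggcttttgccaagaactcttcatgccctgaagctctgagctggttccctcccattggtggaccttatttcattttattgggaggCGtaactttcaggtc

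Signalling genes were the largest group by counts. The 9 members grouped as receptors, ligands and other signalling genes held 4956 counts in WT and 12 in ΔTUT4/7. Of the WT counts 2902 were those of ITPKB, so the rank of the group rests on that gene. ITPKB, a kinase that phosphorylates inositol trisphosphate (chr1:226631690-226739323, hg38, minus strand), was the highest member, at 43.1, 38.7 and 37.9 CPM in the WT libraries. It held 0, 0.0490 and 0.0983 CPM in ΔTUT4/7, or 3 counts against 2902, a ratio of 972 (332 to 4718). PTCHD4, a patched-domain membrane protein, stood at 9.38, 10.5 and 11.1 CPM in WT, and 1 count was found in a single ΔTUT4/7 library against 767. TNFRSF10A, a death receptor for the cytokine TRAIL, gave 8.13, 9.88 and 9.97 CPM in WT and no count in any ΔTUT4/7 library, at least 234-fold lower. The other 6 had WT means under 2 CPM. ALPK2, an alpha-kinase, stood at 1.73, 1.32 and 1.67 CPM in WT with no ΔTUT4/7 count. P2RY2, a receptor for extracellular ATP and UTP, stood at 1.70, 1.77 and 1.21 CPM with 1 count. GRPR, the gastrin-releasing peptide receptor, stood at 0.944, 1.27 and 1.43 CPM with 1 count. The other 3 were as weak and not all even. WIF1, a secreted WNT inhibitor, stood at 1.07, 2.05 and 1.07 CPM with 1 ΔTUT4/7 count. PPP1R1C, a protein phosphatase inhibitor, stood at 1.39, 1.13 and 1.14 CPM with 3 counts, all in replicate 1. ALKAL1, a ligand of the ALK and LTK receptors, stood at 1.49, 1.05 and 0.870 CPM with 2 counts, also in replicate 1.

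The regulators of transcription or chromatin among the members were HHEX, BARX1, NKX2-3, OVOL2, ZXDA and L3MBTL4. These 6 held 2138 counts in WT and 4 in ΔTUT4/7. HHEX, a homeobox factor of liver, blood and endoderm, stood at 10.3, 9.29 and 7.76 CPM in WT and held 1 count in ΔTUT4/7. BARX1, a homeobox factor of stomach and tooth mesenchyme, stood at 9.49, 8.57 and 7.16 CPM and also held 1. NKX2-3, a homeobox factor of gut and spleen, was lower, at 1.71, 1.33 and 1.47 CPM, with no ΔTUT4/7 count. L3MBTL4, an MBT-domain protein, stood at 2.99, 2.53 and 2.54 CPM with no ΔTUT4/7 count, at least 65.3-fold lower. OVOL2, a zinc-finger factor that keeps cells epithelial, stood at 0.746, 1.21 and 1.27 CPM and held 2. None of the 6 held more than 1 count in any ΔTUT4/7 library.

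The members of cell adhesion or cell junctions were all near the lower WT limit: ICAM4, a blood-group adhesion molecule (113 counts in WT), DCHS2, a dachsous protein (87), EPCAM, the epithelial cell adhesion molecule (86), and GJB2, connexin 26 (81). Together these 4 held 367 counts in WT and 2 in ΔTUT4/7, both in DCHS2. ICAM4 was uneven within WT, at 1.41, 2.21 and 1.06 CPM, and DCHS2 even, at 1.17, 1.07 and 1.26 CPM. EPCAM stood at 0.640, 1.30 and 1.41 CPM and GJB2 at 0.853, 1.17 and 1.20 CPM, with WT replicate 1 the lowest in both. Secreted peptidases and their inhibitors made up 4 more, with 810 counts in WT and 5 in ΔTUT4/7. CPXM1, a secreted carboxypeptidase-like protein, was the highest of these and varied little, at 4.27, 4.55 and 4.38 CPM, with no ΔTUT4/7 count. CPQ, a secreted carboxypeptidase, was less even, at 2.56, 4.06 and 4.22 CPM, and both of its ΔTUT4/7 counts lay in replicate 3. F12, coagulation factor XII, stood at 2.08, 1.92 and 1.57 CPM with 2 ΔTUT4/7 counts. SPINT1, an inhibitor of the HGF activator and of matriptase, had the lowest WT mean of all members, at 1.07, 0.805 and 1.24 CPM, with 1 count.

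Enzymes and transporters were as numerous as the signalling genes, with 9 members, 1953 counts in WT and 8 in ΔTUT4/7. GBGT1, which makes the Forssman glycolipid in species where it is active, stood at 6.77, 6.39 and 8.26 CPM in WT with no ΔTUT4/7 count, at least 179-fold lower. SLC19A3, a thiamine transporter, stood at 4.85, 3.94 and 3.61 CPM with 2 ΔTUT4/7 counts. XDH, which oxidises hypoxanthine and xanthine to uric acid, stood at 2.29, 2.37 and 2.58 CPM, and HMGCLL1, a lyase of the ketone-body pathway, at 2.08, 2.13 and 1.87 CPM. Neither XDH nor HMGCLL1 had a ΔTUT4/7 count. SLC16A5, of the monocarboxylate transporter family, stood at 2.67, 2.45 and 1.77 CPM with 1 ΔTUT4/7 count, and PLAAT3, a phospholipase and acyltransferase, at 1.07, 1.17 and 1.37 CPM with none. DMGDH, mitochondrial dimethylglycine dehydrogenase, stood at 0.746, 1.23 and 1.51 CPM with 3 counts. APOBEC3H, an antiviral cytidine deaminase, stood at 0.640, 1.29 and 1.34 CPM with 1. In APOBEC3H and DMGDH the WT replicate 1 value was the lowest.

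There were 3 members tied to actin, cilia or centrioles. CCDC68, a centriole protein, stood at 4.48, 4.99 and 4.45 CPM in WT with no ΔTUT4/7 count. CFAP300, a factor of ciliary dynein arms, stood at 3.79, 2.90 and 2.44 CPM with 1 count, and SCIN, an actin-severing protein of the gelsolin family, at 2.62, 2.98 and 2.65 CPM with 2. The remaining 7 were ARMCX2, BRINP3, RNF175, LEKR1, WDR64, ARMC3 and AC098650.1. ARMCX2, an X-linked armadillo-repeat gene (chrX:101655281-101659850, hg38, minus strand), was the second highest member, at 21.6, 20.7 and 20.01 CPM in WT, and its 3 ΔTUT4/7 counts all came from replicate 1. BRINP3, a gene expressed mainly in neurons, stood at 7.73, 8.13 and 7.66 CPM with 1 ΔTUT4/7 count, and RNF175, a RING-finger gene, at 4.11, 4.06 and 3.58 CPM with none. The last 4 were near the WT limit. ARMC3, another armadillo-repeat gene, stood at 0.906, 1.01 and 1.37 CPM and was the only member with 1 count in each ΔTUT4/7 library. LEKR1 (1.76, 1.29 and 0.970 CPM), WDR64 (1.01, 1.21 and 1.04 CPM) and AC098650.1 (1.16, 1.27 and 0.761 CPM) each held 2 ΔTUT4/7 counts.

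The weakest members were also the least even within WT. Among those at 1 to 2 CPM the median coefficient of variation over the WT libraries was 21.1%, against 19.7% for 763 other protein-coding genes at that level. At 2 to 5 CPM it was 7.46% against 14.04%, and at 5 to 40 CPM 7.66% against 6.85%. WT replicate 1, the smallest WT library, was the lowest of the 3 for 16 of the 42 members, or 38.1%, against 26.5% of 7210 other genes in the members' range of WT levels, the set-aside symbols left out. Those 2 shares were not matched for level, since 5287 of the 7210 stood at 5 to 40 CPM. At 1 to 2 CPM the shares were 47.6% of members and 34.3% of other genes, and at 2 to 5 CPM 36.4% and 30.6%. At 5 to 40 CPM the order was reversed, with 2 of 10 members against 24.5% of other genes. These are descriptions, since the WT limit itself selected on the WT mean.

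Some of these counts rest on how reads were shared between genes. The deposited values are estimated counts, and 14 members had a value more than 0.01 from a whole number in at least 1 library, which marks reads divided among genes. In the annotated transcripts of 41 members (AC098650.1 was not among them under that name), 20 shared no 76-base stretch, the length of 1 read, with a transcript of another gene, and 32 shared under 5% of their stretches. ICAM4 shared most, with 85.4% of its stretches found on either strand in ICAM4-AS1, which overlaps it. Whether reads were assigned by strand is not stated in the sources used here, so ICAM4 and its antisense partner cannot be told apart.

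ZXDA, a zinc-finger gene on the X chromosome, has a near-identical copy. ZXDA shared 18.5% of its stretches with that neighbour, ZXDB, and counts for such copies are uncertain. ZXDA stood at 6.48, 6.45 and 6.98 CPM in WT and at essentially 0 in every ΔTUT4/7 library. ZXDB stood at 22.6, 21.2 and 20.5 CPM in WT and 27.1, 28.5 and 30.7 CPM in ΔTUT4/7. The 2 genes added together gave 28.1 ± 0.871 CPM in WT and 28.8 ± 1.83 CPM in ΔTUT4/7 (SD, n = 3), or 2057 and 2105 counts, so the loss at ZXDA had no counterpart in their sum.

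DPY19L2, a gene needed for the sperm acrosome, shared 18.6% of its stretches with other genes, and several transcribed pseudogene copies of it are counted separately. DPY19L2 stood at 5.13, 5.30 and 4.68 CPM in WT and held 1 ΔTUT4/7 count. Its copy DPY19L2P1 was lower too, at 803 counts in WT and 44 in ΔTUT4/7, while DPY19L2P3 held 155 and 127. Unlike ZXDA and ZXDB, no other copy was higher in ΔTUT4/7 than in WT among the 4 pseudogenes examined.

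**Figure D2:**
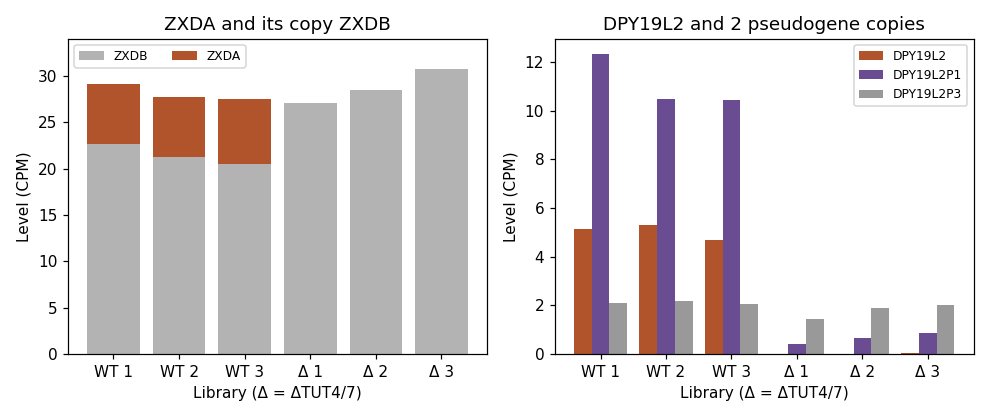
Levels in CPM, by library, of 2 members and their sequence copies. On the left, ZXDA is stacked on ZXDB, and the summed height is 28.1 CPM on average in WT and 28.8 CPM in ΔTUT4/7. On the right, DPY19L2 and its pseudogene DPY19L2P1 are near 0 in ΔTUT4/7 and DPY19L2P3 is not.

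The members were scattered over the genome. They lay on 20 chromosomes, and only 1 pair lay within 1 Mb of each other, RNF175 and DCHS2 on chromosome 4, separated by 471718 bases. On the X chromosome were 3 members (ARMCX2, ZXDA and GRPR), or 7.14% of the members against 3.44% of the 7210 other genes in the members' range of WT levels. Member genes had a median length of 46888.5 bases, against 26934.5 bases in those 7210. The levels were not matched, since 5287 of the 7210 stood at 5 to 40 CPM in WT, where only 10 members did. The scatter and the X share also depend on the symbols set aside. Among genes that met both limits, the CT45A genes and SAGE1 lie close together on the X chromosome and SLC7A3 lies elsewhere on it. PARP9 and DTX3L adjoin on chromosome 3. Setting these aside removed clustered and X-linked genes in advance, so the scatter is no finding about all genes that met the limits.

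The genes beside a member show whether the loss extended along the chromosome. The nearest tested protein-coding gene on each side, within 500 kb, was taken, which gave 75 different flanking genes for 41 members, BRINP3 having none. Of all 14724 tested protein-coding genes that were not members, 31.6% were lower and 38.0% higher in ΔTUT4/7 (edgeR quasi-likelihood test, FDR under 0.05). Over all 23952 tested genes of any kind the shares were 29.0% and 28.6%. Of the 75 flanking genes, 32 were lower (42.7%), 25 higher (33.3%) and 18 did not pass (36 lower and 18 higher when scaled by library size alone, which shifts all genes by -0.11 in the median), and their median log2 fold change was -0.11, against 0.05 for all 14724. That median was -0.23 when scaled by library size alone and -0.056 without ΔTUT4/7 replicate 3. Changes of 2-fold or more were more lopsided: 20 flanking genes (26.7%) passed the test and were at least 2-fold lower, against 10.4% of the background, and 1 was at least 2-fold higher, against 6.28%. Summed, the flanking genes held 306770 counts in WT and 299074 in ΔTUT4/7.

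**Figure D3:**
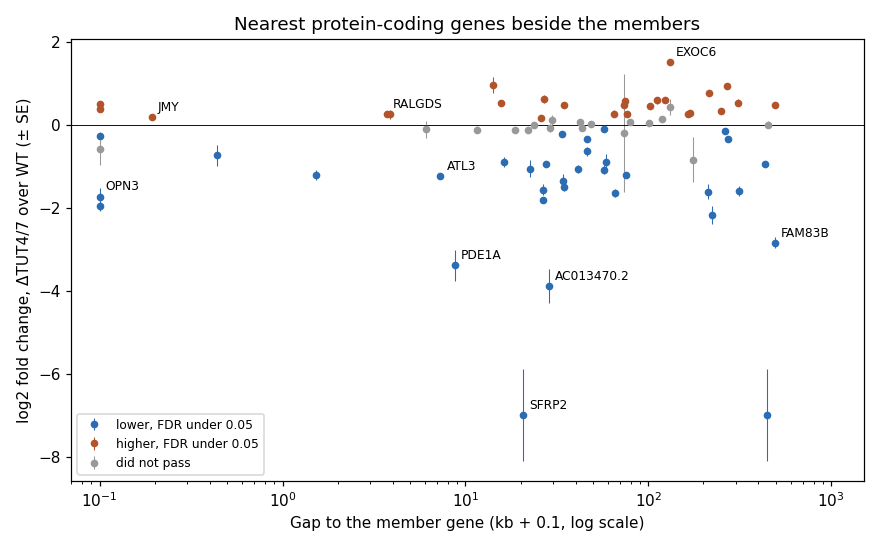
log2 fold change (ΔTUT4/7 over WT, ± SE) of the nearest tested protein-coding genes against their distance from the member, in kb plus 0.1 on a log axis. Of 75 genes, 32 were lower and 25 higher. SFRP2 is drawn for both of its members, and its fitted value of -6.99 rests on no ΔTUT4/7 count and is no measured size.

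Several members had flanking genes whose levels held or rose. JMY, separated from DMGDH by 93 bases, rose by a log2 fold change of 0.20 ± 0.05 (SE, FDR = 0.0040). RALGDS, 3614 bases from GBGT1, stood at 39.8 ± 4.32 CPM in WT and 43.9 ± 2.46 CPM in ΔTUT4/7 (SD, n = 3) and rose by 0.26 ± 0.07. Scaled by library size alone, neither JMY (0.08) nor RALGDS (0.15) passed the test. GRK6, a G protein-coupled receptor kinase that overlaps F12, rose by 0.51 ± 0.05, and SNX5, a sorting nexin that overlaps OVOL2, by 0.37 ± 0.05. EXOC6, an exocyst subunit 131184 bases from HHEX, was the only flanking gene called at least 2-fold higher, at 20.7 ± 1.71 against 54.7 ± 3.28 CPM. On either side of ALPK2, neither NEDD4L (0.07 ± 0.07) nor MALT1 (0.08 ± 0.06) passed the test, and the member NKX2-3 had only higher flanking genes (GOT1 and SLC25A28). Other higher flanking genes with small p-values were AP1S2 beside GRPR (0.93 ± 0.06), PIP4K2A beside ARMC3 (0.76 ± 0.06), AGFG1 beside SLC19A3 (0.59 ± 0.05) and MTDH beside CPQ (0.48 ± 0.04). Their gaps to the member were wide, at 268634, 213446, 122546 and 494530 bases in that order.

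At other members the neighbours were lower too. By p-value these were led by TNFRSF10D beside TNFRSF10A (-1.82 ± 0.06), ATL3, an endoplasmic reticulum GTPase beside PLAAT3 (-1.24 ± 0.05), FAM83B beside HMGCLL1 (-2.84 ± 0.13), PTPDC1 beside BARX1 (-1.21 ± 0.06), ARMCX3 beside ARMCX2 (-0.94 ± 0.05) and ARHGEF17 beside P2RY2 (-1.65 ± 0.09). Of these, FAM83B lay 489274 bases from its member, and the rest lay from 7204 (ATL3) to 75439 bases (PTPDC1) away. SFRP2, a secreted WNT inhibitor that lies between RNF175 and DCHS2, held 48 counts in WT and none in ΔTUT4/7. Thus 3 neighbouring tested genes on chromosome 4 were almost without reads. The genes outside that run were not: TMEM131L stood at 52.1 ± 0.434 CPM in WT and 67.5 ± 2.94 CPM in ΔTUT4/7, and PLRG1 at 128 ± 6.98 and 112 ± 3.68 CPM (SD, n = 3). PDE1A, a phosphodiesterase 8638 bases from PPP1R1C, fell from 172 counts to 15 (log2 fold change -3.38 ± 0.37), and AC013470.2, beside SCIN, from 165 to 10 (-3.88 ± 0.41). Like SFRP2, both passed the count filter only through WT libraries, so lower was nearly the only call they could give. These genes count among the 32 lower flanking genes and among the 20 at least 2-fold lower. RBMS3, an RNA-binding protein gene that AC098650.1 overlaps, fell by 1.95 ± 0.13 on the log2 scale. Both genes lie on the plus strand, and AC098650.1 values lay up to 0.497 from a whole number, so reads may have been divided between them. Both flanking genes of L3MBTL4 (TMEM200C, -0.88 ± 0.17, and ARHGAP28, -1.59 ± 0.11), of GJB2 (GJA3, -1.56 ± 0.12, and CRYL1, -1.61 ± 0.18) and of APOBEC3H (APOBEC3F, -1.07 ± 0.10, and CBX7, -0.89 ± 0.12) were lower. Of the 41 members 10 had only lower flanking genes, 15 had a lower one beside one that was not, and 16 had none.

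Within a wider window the picture was mixed. Taking every tested protein-coding gene within 1 Mb, the median log2 fold change ran from -1.84 around HMGCLL1 (4 genes) to 0.56 around PTCHD4 (2 genes), and 15 of 41 medians were negative. The median of the 41 medians was 0.06, against 0.05 for all 14724 tested protein-coding genes that were not members. Of those 14724 genes 31.6% were lower and 38.0% higher. Single windows departed from these shares in both directions. Around APOBEC3H 21 of 33 genes were lower, around ITPKB 14 of 19 and around GJB2 11 of 14. Around NKX2-3 13 of 19 genes were higher, and around GBGT1 15 of 28.

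Most non-coding genes at the same loci had fewer counts in ΔTUT4/7. Long non-coding genes or unclassified transcripts (TEC) that overlapped a member or lay within 1 kb, a set defined after the values were seen, numbered 20 at 14 members. They held 964 counts in WT and 173 in ΔTUT4/7, though several were already near the detection limit in WT, such as AL139815.1 at ARMC3 with 11 counts and AP003117.1 at CPQ with 14. Of the 9 that had enough counts for the test, 8 were lower and none higher, where 30.2% of all 5392 tested genes of these 2 kinds were lower and 10.8% higher. All of these 9 except AC011511.5 passed the count filter only through WT libraries, so lower was nearly the only call they could give. At TNFRSF10A, the antisense TNFRSF10A-AS1 fell from 107 counts to 0, AC100861.1 from 98 to 0 and AC100861.2 from 40 to 1. At PTCHD4, AL353138.1 fell from 140 to 1 (FDR = 2.2e-09), and at BRINP3, LINC01351 fell from 33 to 2. BARX1-DT, which starts 242 bases from BARX1 on the other strand, held 20 counts in WT and none in ΔTUT4/7 and was too low for the test. The smallest called change was that of AC011511.5 at ICAM4 (-0.98 ± 0.26), RBMS3-AS3 did not pass the test (30 and 11 counts), and the only one with more counts in ΔTUT4/7 was AC084357.2 at DPY19L2, which held 9 counts in WT and 25 in ΔTUT4/7. Small RNA genes and pseudogenes at the loci were mixed: SNORD17 at OVOL2 was called lower (1398 and 626 counts), and AC020937.1 at DMGDH held 17 and 15 counts. Rows for small RNA families spread over many sites were not used. Without stated strand, reads of an overlapping pair cannot be told apart.

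**Figure D4:**
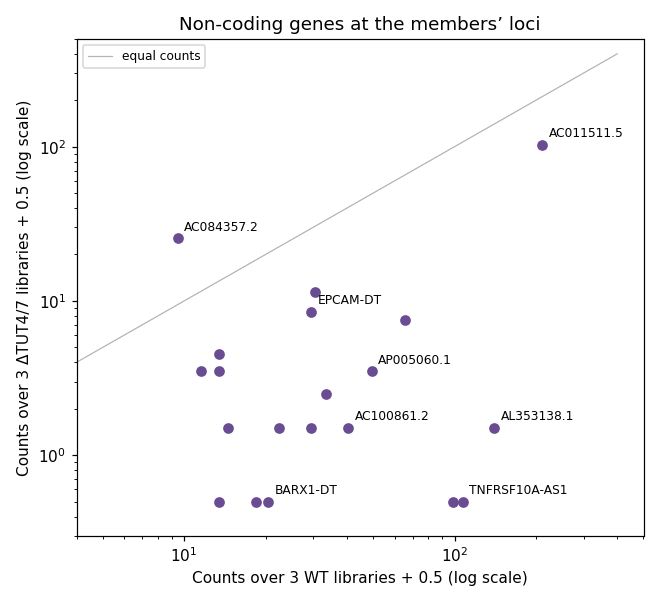
Counts over the 3 WT and the 3 ΔTUT4/7 libraries, plus 0.5 and on log axes, for the 20 long non-coding or unclassified genes at the members' loci. The line marks equal counts. AC084357.2 (9 and 25 counts) lies above it and the other 19 lie below.

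Members were set beside genes of the same family or pathway, from lists that held 38 members and 209 tested relatives that were not members. Of these 209, 86 were lower (41.1%), 65 higher (31.1%) and 58 did not pass, with a median log2 fold change of -0.20, against the 31.6%, 38.0% and 0.05 of all tested protein-coding genes that were not members. Some relatives, such as TNFRSF10C, SERPING1, PRRX1 and SARDH, passed the count filter only through WT libraries, so lower was nearly the only call they could give. Others, such as TNFRSF10D, ARMCX3 and ICAM1, are flanking genes as well, so the shares of relatives and of flanking genes are not independent. The direction differed from list to list.

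In the TRAIL pathway, which carries death signals from TNFRSF10A and TNFRSF10B to caspases, 7 of 11 relatives were lower, 1 was higher and 3 did not pass (list median -0.93). TNFRSF10B, the other signalling TRAIL receptor, fell from 257 ± 11.5 to 68.7 ± 1.25 CPM (log2 fold change -1.79 ± 0.05, FDR = 1.7e-17). The decoy receptors fell as well, TNFRSF10D from 99.2 ± 2.06 to 25.9 ± 0.593 CPM and TNFRSF10C from 92 counts to 5. The initiator caspases CASP8 (-2.16 ± 0.10) and CASP10 (-3.41 ± 0.11) were lower, and the adaptor FADD was higher (0.61 ± 0.10). The 3 that did not pass were TNFRSF1A (0.02 ± 0.07), TRADD (-0.13 ± 0.18) and RIPK1 (0.09 ± 0.07). The TNFRSF10 receptors lie side by side on chromosome 8, so these are not independent of the flanking genes above.

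Inositol phosphate enzymes did not move together with ITPKB. Of 12 tested, 3 were lower, 6 higher and 3 did not pass. The sister kinases ITPKA (-0.10 ± 0.28) and ITPKC (0.01 ± 0.12) did not pass the test, and ITPKC stood at 10.5 CPM in WT and 9.67 CPM in ΔTUT4/7. IP6K1, an inositol hexakisphosphate kinase, was higher (1.29 ± 0.05), and INPP5D, a lipid phosphatase also known as SHIP1, fell from 11.8 ± 0.468 to 0.257 ± 0.0655 CPM.

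In the list of ARMCX2, armadillo genes most of which are X-linked, 6 of 8 relatives were higher and 1 was lower. GPRASP2 (1.57 ± 0.06), BHLHB9 (1.37 ± 0.07), ARMCX4 (1.09 ± 0.13) and ARMCX5 (0.99 ± 0.06) were higher, and ARMCX3, the nearest to ARMCX2 at 27438 bases, was lower (-0.94 ± 0.05). The patched-domain list of PTCHD4 had 1 lower, 2 higher and 4 not passed among 7. DISP3, a patched-domain relative, rose from 0.799 to 1.54 CPM (1.08 ± 0.28), and PTCH1, the hedgehog receptor, stood at 49.3 and 51.6 CPM.

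Of 10 tested relatives of the homeobox members, 6 were lower and 4 higher. BARX2, the paralog of BARX1, rose from 1.61 to 8.09 CPM (2.40 ± 0.17), the opposite of BARX1. In the NKX family, NKX2-1 (-3.35 ± 0.29) and NKX3-2 (-1.54 ± 0.17) were lower and NKX2-5 (0.38 ± 0.10) was higher. PRRX1, a mesenchymal homeobox factor, fell from 153 counts to 4 and so missed membership by 1 count. The list also holds SFTA3, the neighbour of NKX2-1 (281 counts in WT and 3 in ΔTUT4/7), which the table marks as both coding and non-coding.

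Epithelial genes, the list that holds EPCAM, OVOL2, SPINT1 and GJB2, were split. Of 18 tested relatives 8 were lower, 5 higher and 5 did not pass. The list also holds the cadherins CDH1 and CDH3, whose symbols were set aside, so they are not among the 18. Both were lower, CDH1 with 308 counts in WT and 4 in ΔTUT4/7 and CDH3 by a log2 fold change of -0.97 ± 0.26. MARVELD2, a tricellular tight-junction protein, fell from 27.5 ± 1.21 to 0.601 ± 0.117 CPM (-5.34 ± 0.14), and SPINT2, the relative of SPINT1, from 7.14 to 1.32 CPM. The epithelial splicing factor ESRP2 (-1.76 ± 0.19) and the transcription factor GRHL3 (-2.12 ± 0.36) were lower. Occludin (OCLN), another tight-junction protein, rose from 26.2 ± 1.46 to 53.6 ± 1.81 CPM, and KRT18 (0.54 ± 0.06) and LSR (0.93 ± 0.10) were higher, while KRT8, the keratin that pairs with KRT18, was lower (-1.54 ± 0.18). Desmoplakin (DSP) did not pass the test, at 268 and 247 CPM.

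Metabolic lists also went in both directions. In the ketone-body list of HMGCLL1, BDH1 fell from 8.82 ± 0.335 to 0.0767 ± 0.0936 CPM, while HMGCS1 (1.70 ± 0.05) and OXCT1 (1.87 ± 0.05) were higher. Of 4 relatives of SLC19A3, 3 were higher, among them the folate transporter SLC19A1 (1.70 ± 0.08), and the thiamine transporter SLC19A2 did not pass (0.11 ± 0.07). Around GBGT1, FUT1, a fucosyltransferase of the H antigen, fell from 7.16 ± 0.261 to 0.112 ± 0.0310 CPM, among 5 lower and 2 higher of 7 glycolipid transferases. Among secreted WNT inhibitors SFRP1 rose from 8.47 ± 0.647 to 50.3 ± 2.15 CPM, opposite to WIF1 and SFRP2. Carboxypeptidases were lower in 4 of 5 and the APOBEC family in 4 of 6, with none higher in either. APOBEC3F is also a flanking gene of APOBEC3H, around which 21 of 33 genes were lower, so the APOBEC calls are not independent of the flanking genes.

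In the other lists the relatives with the smallest p-values were as follows. Carboxypeptidase E (CPE), which processes peptide hormones, fell from 138 to 35.8 CPM (-1.83 ± 0.06), and APOBEC3C, a deaminase of the same family as APOBEC3H, from 79.5 to 35.4 CPM (-1.05 ± 0.06). Both receptors of ALKAL1 were lower, LTK by 1.98 ± 0.23 and ALK by 1.78 ± 0.53 on the log2 scale, though ALK held only 45 counts in WT and 12 in ΔTUT4/7. Among cadherin-like relatives of DCHS2, FAT3 fell from 73.9 to 6.71 CPM (-3.35 ± 0.07) and FAT4, the partner of dachsous proteins, from 87.7 to 24.1 CPM (-1.74 ± 0.06), while FJX1 was higher (1.30 ± 0.11). ALPK1, a sensor kinase of the same family as ALPK2, was lower (-2.57 ± 0.09), and so were 2 more of the 5 alpha-kinases tested. TFPI, which restrains the tissue-factor branch of coagulation (-2.54 ± 0.09), and SERPING1, the inhibitor of activated F12 (140 counts in WT and 4 in ΔTUT4/7), were lower in the list of F12.

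Connexins, the gap-junction proteins that include GJB2, were split, with GJB7 lower (-4.70 ± 0.39) and GJA1, the widely expressed connexin 43, higher (0.47 ± 0.05). Among the gelsolin relatives of SCIN, CAPG (-1.80 ± 0.18) and SVIL (-0.56 ± 0.07) were lower and FLII was higher (0.88 ± 0.05). In the monocarboxylate transporter family SLC16A1, the lactate transporter, rose from 307 to 476 CPM (0.75 ± 0.05). DNAH6, a ciliary dynein heavy chain, was lower (-3.44 ± 0.12) in the list of CFAP300, where 5 of 12 relatives were higher, among them DNAAF5 (0.94 ± 0.06). In purine and molybdenum metabolism the salvage enzymes HPRT1 (1.02 ± 0.05) and PNP (0.96 ± 0.05) were higher, opposite to XDH. Of the MBT-domain relatives of L3MBTL4, L3MBTL1 was lower (-1.39 ± 0.10) and SFMBT2 higher (0.99 ± 0.06). In choline and glycine metabolism SARDH, which acts after DMGDH, fell from 95 counts to 9 and CHDH was higher (1.26 ± 0.07). Of the 6 P2Y receptors related to P2RY2, 1 was lower, 2 were higher and 3 did not pass, and P2RY1, the highest, stood at 42.6 and 47.0 CPM.

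Promoters of the members were not of 1 kind. In the 300 bases from 250 before to 50 after the gene start given in the table, read from the hg38 genome, a window with at least 55% G + C and a CpG observed-to-expected ratio of at least 0.6 was called CpG-rich. Of the 42 members 23 were CpG-rich, 54.8% (exact 95% interval 38.7 to 70.2), against 59.4% of all 15981 protein-coding windows and 61.3% of 7665 other genes in the members' range of WT levels, here with the set-aside symbols included. The interval contains both shares. The members ran from HHEX, with 44 CpGs in the window at 80.3% G + C, to APOBEC3H, with 2. XDH held 3, ARMCX2 11 and ITPKB 5 at the start the table gives, and 12 of the 21 members with the higher WT levels were CpG-rich. Short motifs were about as common as elsewhere when both strands were searched: TATAAA occurred in 4 windows (9.52% against 8.13% of all protein-coding windows), CCAAT in 14 (33.3% against 35.6%) and GGGCGG in 25 (59.5% against 58.9%).

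**Figure D5:**
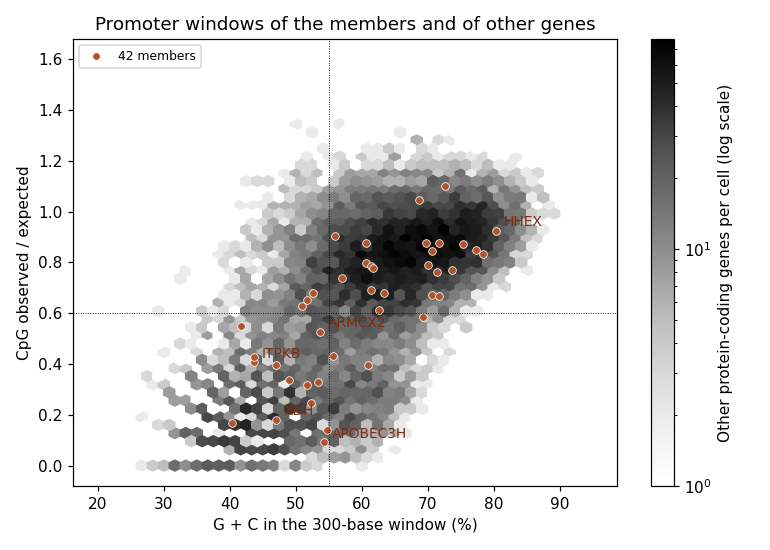
CpG observed-to-expected ratio against G + C percent in the 300-base promoter window, with the 42 members as points over the density of other protein-coding genes in grey (log shading). Dotted lines mark 55% and 0.6, and 23 members lie at or above both.

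The limits of the selection can be seen from the genes on either side of them. At 4 to 6 ΔTUT4/7 counts lay 22 further protein-coding genes past the same WT limit, among them ENPP2, which makes lysophosphatidic acid (2432 counts in WT and 5 in ΔTUT4/7), and ESRRG, an orphan nuclear receptor (1334 and 5). Just below 1 CPM in WT lay SPARC (0.965 CPM), ABCA6 (0.929 CPM) and HES5 (0.908 CPM), with 1, 3 and 0 ΔTUT4/7 counts. Other gene types that met the same limits numbered 28, of which 19 were long non-coding genes, led by LINC00470 (979 counts in WT and 1 in ΔTUT4/7). In the reverse direction, with the limits exchanged between the groups, 3 protein-coding genes qualified, KCNA1, ZNF625 and ZNF808, before any symbol was set aside, against 55.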

How the data were processed

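The authors sequenced ribosomal RNA-depleted total RNA as paired 76-base reads, aligned them to hg38 with STAR 2.7.3a and quantified Ensembl transcripts in Partek Flow 10.0.22. The deposited gene table holds estimated counts per gene, not whole where reads were divided among genes, and not normalized. They were rounded to whole numbers. The authors' own comparison (p-values, ratios, fold changes and group means) and the small RNA data were not used. Groups came from the sample labels.

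Levels are CPM by library total, given with SD over 3 libraries. The 6 libraries were fitted with edgeR 4.0.16 (R 4.3.3, TMM scaling, robust quasi-likelihood test) over 23952 genes whose largest count exceeded 12, with Benjamini-Hochberg adjustment over all of them and FDR under 0.05 as the call. In all 29.0% of tested genes were lower and 28.6% higher. In simulated data of this size, 99.5% of 200 genes changed 4-fold were recovered and 0.101% of unchanged genes were called. The simulation changed only those 200 of 23952 genes, a far smaller share than was called in the real data. Recovery was not measured separately for genes with few counts, so the rate does not carry over to them. P-values measure only the spread between these libraries.

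The members, gene lists and tests were chosen with earlier results of these data known. The text names every member. Of flanking genes the rule takes the 6 lower and 6 higher with the smallest p, of relatives up to 3 called per list with the smallest p for the lists described, and up to 3 genes outside each limit. A few genes the rule takes are not reported here. Other flanking genes and relatives were named after their values were seen. Fold bounds use a floor of 3 counts over the group. Intervals cover counting error only. Promoter sequences are from RefSeq, whose table held 32 of the 42 members. Alternatives comprised DESeq2 1.42.0, limma 3.58.1, other scalings and count filters, other limits, a replicate block and leaving out each library.

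Same-numbered WT and ΔTUT4/7 libraries did not deviate together (correlations of 0.0519, -0.0115 and -0.0222), so the numbers were not treated as pairs.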

Additional observations from a re-analysis of the deposited data

How the results depend on the processing

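The number of genes meeting the limits, 42 here, was 15 with no ΔTUT4/7 count allowed, 97 with up to 10, 74 at a WT mean of 0.5 CPM and 21 at 2 CPM, and leaving out 1 library at a time gave 36 to 65, the highest without ΔTUT4/7 replicate 1, which leaves fewer counts to sum. The median log2 fold change of the flanking genes, -0.11, was -0.23 with library size alone, -0.21 with upper-quartile scaling, -0.19 with limma on log2(CPM + 1), -0.14 with no count filter, -0.060 at a mean count of 50 or more and -0.15 within 100 kb, and -0.12 to -0.056 with 1 library left out. Within 100 kb, 25 flanking genes were called lower and 14 higher, against 32 and 25 within 500 kb. Over all 23952 tested genes, library size alone shifted the median by -0.11 and upper-quartile scaling by -0.10, so the flanking medians under these scalings carry a shift common to all genes. The cause of the other shifts was not tested, and the flanking median stayed negative in each setting. With 1 library left out, 29 to 32 flanking genes were lower and 23 to 26 higher, 82 to 85 relatives lower and 62 to 66 higher, and 6263 to 6618 of all tested genes lower and 6243 to 6623 higher. With a replicate block, 32 flanking genes were lower and 25 higher, 87 relatives lower and 66 higher, and 6846 of all genes lower and 6832 higher, so the block moved no count by more than 1.5 times. Of 125 alternatives, 110 left their result within its limit. That limit was 1.5 times either way for counts, 0.019 for the flanking median and the interval of 38.7 to 70.2% for CpG-rich promoters. Library size alone stayed within it with 36 flanking genes lower and 18 higher and 5548 of all tested genes higher. So did a CpG-rich share of 40.5% at an observed-to-expected ratio of 0.75. The tally is therefore no measure of stability. At this depth genes with few WT counts, such as BARX1-DT with 20, were too low for the test.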
